A study of Mus musculus with 5 samples.

Results

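TLX binding within acetylated chromatin was examined in mouse primary neural stem cells (NSC) from 2 of the 5 samples of the series, with 1 library each. One is a chromatin immunoprecipitation of TLX and the other of histone H3 acetylated at lysine 27 (H3K27ac). For the TLX library, NSC had been transduced with a retrovirus encoding TLX with a 3xTY1 tag and kept under drug selection, and the tagged protein was precipitated with an antibody against TY1. The H3K27ac library came from NSC that had not been transduced according to the sample's own label, although the growth protocol, which is worded alike for all 5 samples, describes only transduced cells. Both profiles thus describe one kind of culture but not the same cells. Members were the 7458 narrow peaks of the TLX list and the 31266 broad peaks of the H3K27ac list, called regions here, out of 71757 peaks in the 4 deposited lists of the series. A TLX peak was placed by its summit, the base of highest signal, and an H3K27ac region was said to hold TLX when at least 1 summit lay between its edges. With 1 library per mark there is no replicate error, no test was made, and the 95% intervals given (exact Clopper-Pearson) cover counting error only. No TY1 precipitation from cells without the tag was analysed here, and any TY1 signal that does not come from tagged TLX cannot be told apart from binding; the control library of cells with the empty vector MSCV-neo had no antibody and was not analysed here. All positions are in mm10.

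TLX, encoded by Nr2e1, is an orphan nuclear receptor that keeps neural stem cells self-renewing and is best known as a repressor that recruits histone deacetylases and the demethylase encoded by Kdm1a. It binds DNA at a short motif with the bases AAGTCA. H3K27ac is laid down by acetyltransferases on nucleosomes that flank active promoters and enhancers, and wide stretches of it are found at genes that specify cell identity.

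The label of the cells was checked against marker genes. H3K27ac lay within 1 kb of a start of 14 of 16 neural stem cell genes, among them Nes, Sox2, Vim and Fabp7, and of 9 of 12 astrocyte genes, 6 of 12 genes of the oligodendrocyte lineage, 7 of 13 neuron genes, 1 of 10 microglia genes and 1 of 10 endothelial genes. Over all protein-coding genes this share was 52.8% (11545 of 21883). Pax6 and Msi1 were the neural stem cell genes without such a region. Msi1 has no listed start, so only the ends of its annotated span were examined, and a start inside that span would be missed.

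The start regions of strong TLX peaks are shown first, because their sequence could be set against this motif. Each line gives the 250 bases upstream of the gene start, 5′ to 3′ on the gene's strand, from RefSeq (GRCm38.p6, the assembly of mm10), with AAGTCA or its complement TGACTT in capitals. The first 3 are the windows with the highest TLX q among those with the motif, apart from Psmf1 chosen by this rule after their values were seen, and Ccdc57 has the highest q among those without it.
Psmf1 (chr2:151741311-151741560, minus strand): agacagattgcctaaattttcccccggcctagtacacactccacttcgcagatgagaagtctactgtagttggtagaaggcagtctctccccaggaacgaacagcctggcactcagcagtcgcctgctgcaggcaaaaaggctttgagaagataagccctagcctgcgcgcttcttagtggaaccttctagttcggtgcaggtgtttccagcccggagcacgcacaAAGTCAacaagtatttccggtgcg
Psmb3 (chr11:97703184-97703433, plus strand): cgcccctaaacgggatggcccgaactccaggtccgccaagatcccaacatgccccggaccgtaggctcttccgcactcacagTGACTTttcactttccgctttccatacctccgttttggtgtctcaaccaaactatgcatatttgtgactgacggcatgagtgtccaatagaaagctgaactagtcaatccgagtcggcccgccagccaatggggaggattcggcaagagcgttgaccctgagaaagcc
Bsdc1 (chr4:129461429-129461678, plus strand): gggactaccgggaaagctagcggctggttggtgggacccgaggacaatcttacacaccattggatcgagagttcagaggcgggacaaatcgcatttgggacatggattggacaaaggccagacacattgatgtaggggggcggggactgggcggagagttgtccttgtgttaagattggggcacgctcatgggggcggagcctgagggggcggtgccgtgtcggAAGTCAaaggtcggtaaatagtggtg
Ccdc57 (chr11:120932873-120933122, minus strand): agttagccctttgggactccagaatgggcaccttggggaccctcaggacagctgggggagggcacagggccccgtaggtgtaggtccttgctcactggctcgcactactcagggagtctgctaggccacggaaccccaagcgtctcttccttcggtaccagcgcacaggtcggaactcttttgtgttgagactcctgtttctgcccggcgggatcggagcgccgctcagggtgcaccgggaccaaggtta
In Psmf1, a proteasome inhibitor gene, the TLX summit fell on base 218 of the window and the motif began at base 227. This was the strongest TLX peak of the list, with a fold of 72.3 over the caller's background, and it sat at 53.1% of the width of an H3K27ac region of 1547 bp. In Bsdc1 the summit was at base 227 and the motif at base 225, with a TLX fold of 14.9. In Psmb3, which encodes a proteasome subunit, the summit at base 103 lay 20 bases from the start of the motif at base 83, and the fold was 13.3. Ccdc57 had a fold of 17.2 with no match in its window.

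The TLX motif was more frequent in start windows with a TLX summit than in other acetylated start windows. RefSeq windows of 300 bases (250 upstream and 50 downstream of a start) were searched on both strands for AAGTCA and, as a comparator of equal base composition, for ACTGAA, the same letters read backwards. The 2 words can share their end bases, which occurred in 11 of the 19403 windows that do not overlap one another. AAGTCA was present in 13.3% of all windows. Among windows in H3K27ac it was present in 100 of 683 with a TLX summit (14.6%, 12.1 to 17.5) and in 819 of 8753 without one (9.36%, 8.75 to 9.99). ACTGAA went from 8.78% (6.77 to 11.2) with a summit to 9.96% (9.34 to 10.6) without. The contrast was found at intermediate GC content: between 50 and 60% GC, AAGTCA was in 23.8% (18.1 to 30.2) of windows with a summit and 13.5% (12.3 to 14.9) of those without, and between 60 and 70% GC in 13.7% (9.92 to 18.2) and 7.35% (6.49 to 8.28). Below 50% GC (21.9% of 32 windows against 18.3%) and above 70% GC (3.66% against 2.499%) the intervals overlapped. The comparator ACTGAA showed a contrast of its own above 70% GC, with 7.32% (3.84 to 12.4) of windows with a summit and 2.84% (2.11 to 3.73) of those without. For ACTGAA the shares were 34.4% (18.6 to 53.2) and 19.98% (17.3 to 22.9) below 50% GC, 10.4% (6.55 to 15.5) and 14.0% (12.8 to 15.4) at 50 to 60% GC, and 5.61% (3.24 to 8.96) and 7.91% (7.02 to 8.87) at 60 to 70% GC. AAGTCA was in 21.1% (15.9 to 26.9) of the windows in the highest of 3 equal groups by TLX q and in 10.5% (6.86 to 15.3) in the lowest, whereas ACTGAA was in 7.46% and 11.8%. GC content differed between these groups, with medians of 60.8% in the highest and 64.7% in the lowest, and they were not compared at equal GC. Matches of AAGTCA lay at a median of 75.5 bp from the summit, against 109 bp for ACTGAA, with 40 of 114 and 16 of 64 within 50 bp. A match is a description of the letters and does not show binding at that base.

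Nearly all TLX summits lay inside acetylated regions, and the strongest did so least often. Of 7458 summits, 6750 were within an H3K27ac region (90.5%, 89.8 to 91.2), and in another 80 peaks a flank reached a region while the summit lay outside it. When the peaks were divided into deciles by q, the share was 82.7% (79.8 to 85.4) in the highest decile and 94.2% (92.3 to 95.8) in the lowest. Gene position changed along the same order. Summits within 1 kb of a gene start made up 14.6% (12.2 to 17.4) of the strongest decile and 50.5% (46.9 to 54.2) of the weakest, while summits between genes made up 44.5% and 20.6%. At gene starts 98.5% of summits were acetylated, inside genes 87.6% and between genes 84.4%.

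Within a region, TLX summits gathered near the middle. The central 33.3% of each region's base pairs, called the core, held 4155 of the 6750 summits (61.6%, 60.4 to 62.7). The outer 10% at either side, together 20% of each region, held 2.68% (2.31 to 3.095). The median distance from the region's centre was 318 bp. The median distance that an even spread would give was taken for each summit's own region, and the median of these values was 682 bp. Summits within 250 bp of the centre were 42.5% of all, against 21.1% for an even spread, and summits less than 200 bp from an edge were 2.25% against 16.9%. On 18 autosomes (all except chromosome 6) the share in the core ran from 57.2% to 70.6% with a median of 61.3%, and chromosome 6 had 58.5%. Chromosome X had 42.9%, below each of the autosomes. This value rests only on the 70% of its 40 TLX peaks with a summit within H3K27ac, and no interval was computed for it.

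The central position held for narrow regions and flattened in wide ones. In regions of 1 to 2 kb, 76.7% (74.7 to 78.6) of 1912 summits were in the core, at a median of 137 bp from the centre. The share was 66.3% (64.3 to 68.2) at 2 to 4 kb, 47.8% (45.1 to 50.5) at 4 to 8 kb and 39.4% (36.1 to 42.7) at 8 kb or more. In the last class, all gene positions together, the summits were spread almost evenly along the region except at its ends. The outer 20% held 9.44% (7.59 to 11.6) of them. Less than 200 bp from an edge lay 0.114%, against 3.07% for an even spread. By position, the core in this class held 35.2% (30.9 to 39.6) at gene starts, 47.0% (40.5 to 53.6) inside and 40.9% (33.2 to 48.9) between genes. The outer 20% held 14.8%, 2.56% and 3.14% in the same order. Over all widths, the core held 65.8% of single summits and 34.6% of summits in regions with several. Regions with several were also wider, with a median of 8623.5 bp against 2415.5 bp, and no comparison at equal width was made. Regions under 1 kb had 55.3% (49.4 to 61.1) of their 291 summits in the core. Stronger TLX peaks were slightly more central, with 80.1% (75.4 to 84.3) of summits of the highest quintile by q and 71.0% (66.4 to 75.3) of the lowest in the core of regions of 1 to 2 kb. The median fold of the TLX peaks ran from 4.68 in regions of 1 to 2 kb to 5.003 in those of 8 kb or more. The broad peak list gives no signal along a region, so dips of H3K27ac under a summit could not be examined.

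**Figure D1:**
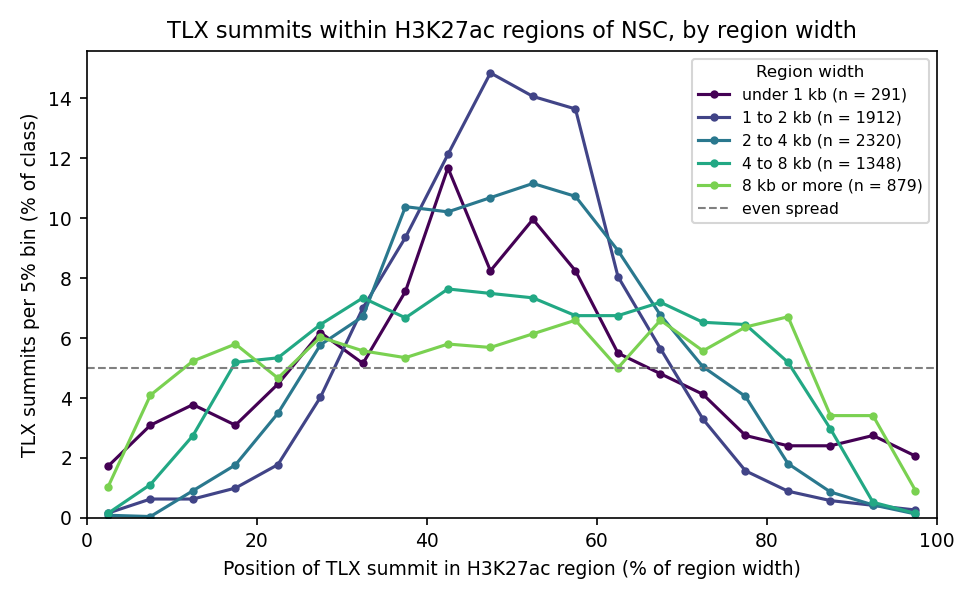
Position of TLX summits along H3K27ac regions of NSC, from one edge (0%) to the other (100%), as the percentage of summits per 5% bin in each class of region width. Lines are width classes and the dashed line is an even spread; the curve of regions of 1 to 2 kb is highest at the centre, and that of regions of 8 kb or more stays near the dashed line except at the ends.

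The strongest single sites were central at gene starts and mixed elsewhere. Of the 5 TLX summits of highest q at gene starts, 4 lay near the centre of their regions: 48 bp from it in Psmf1, 33 bp at D6Wsu163e, 3 bp in Ccdc57 and 63 bp in Vti1a, which encodes a vesicle SNARE. The other summit of the 5, 641 bp from Hes3, a repressor gene of the Hes family, lay 432 bp from the centre of a region of 2511 bp. Of the 5 summits of highest q between genes, the strongest was one 75432 bp from Tnfsf11 that lay 20 bp from the centre of a weak region of 770 bp (H3K27ac fold 2.31) with a TLX fold of 29.5. Another, 119921 bp from Cd180, lay 10 bp from the centre of 1727 bp. The other 3 were off centre, by 517 bp in a region of 5408 bp whose nearest gene was Tcf4, by 2344 bp in 14322 bp near Cpvl and by 3030 bp in 8624 bp at Hes1. Inside genes the strong summits lay in wider regions and off their centres, by 1318 bp in Mrps28, 4364 bp in Rab31, 1772 bp in Sparcl1, a gene of astrocytes, and 1865 bp in Pdzd2, but by 401 bp in Serinc5.

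Among points within 1 kb of a listed gene start, most region centres and most TLX summits lay on the gene side of the start. Of 6504 summits within H3K27ac on chromosomes with listed starts, 2164 were within 1 kb of the nearest start, with a median position of 86.5 bp into the gene and quartiles of -76.25 and 281 bp (negative values lie upstream), and 35.8% (33.8 to 37.9) lay upstream. Centres of TLX-holding H3K27ac regions lay further in, at a median of 174 bp, with 27.9% (25.9 to 30.0) upstream, and centres of regions without TLX at 126 bp. In regions with 1 summit and at least 1 listed start, the summit was nearer to the start than to the centre in 1226 of 2186 (56.1%, 54.0 to 58.2). This share was 48.4% (44.8 to 52.0) in regions of 1 to 2 kb and 64.4% (59.0 to 69.6) in regions of 4 to 8 kb. In the latter the median distance was 407 bp to the start and 1079 bp to the centre. The distance was to the nearest listed start, and a region can hold several starts but has 1 centre. No value for an even spread was computed, so a preference for starts cannot be read from these shares. In start regions of 8 kb or more, TLX summits were 168 per Mb within 1 kb of a start and 81.5 per Mb in the rest of the region, and at 2 to 4 kb they were 179 and 37.0 per Mb.

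**Figure D2:**
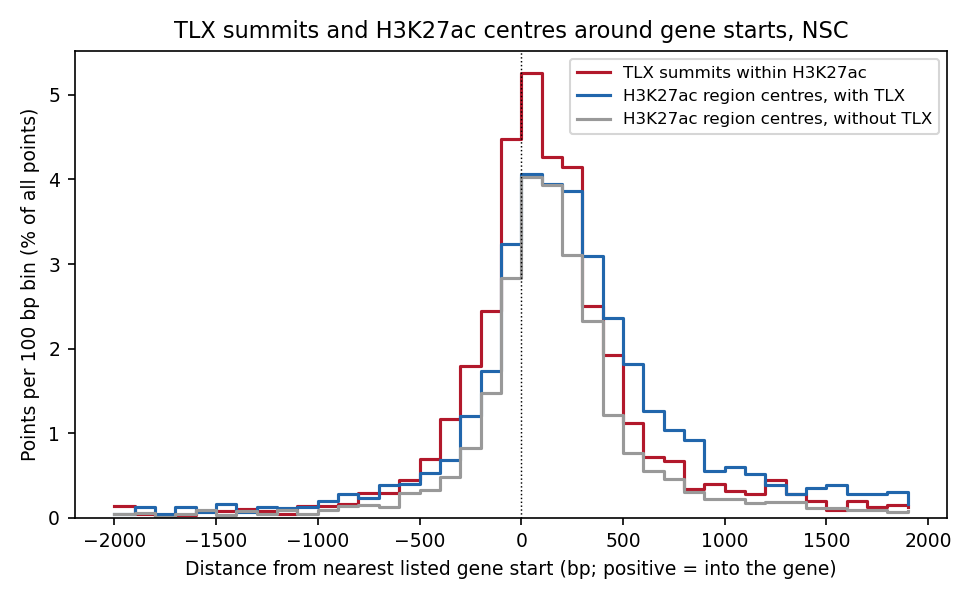
TLX summits within H3K27ac and centres of H3K27ac regions with and without TLX around the nearest listed gene start in NSC, in bins of 100 bp, as a percentage of all points of each kind; positive distances lead into the gene. The TLX curve is highest in the bin just past the start (median 86.5 bp), and the centres of regions with TLX lie further into the gene (median 174 bp). Both medians are over points within 1 kb of a start.

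Regions with TLX were wide and strongly acetylated. Of the 31266 regions, 6226 held a TLX summit, which is 19.9% (19.5 to 20.4). Their median width was 2551 bp (quartiles 1708 and 4368) against 1406 bp (898 and 2117) for the 25040 regions without TLX, and their median H3K27ac fold was 9.99 (6.01 to 15.1) against 3.82 (2.81 to 6.82). Regions of 2 kb or wider were 64.6% of those with TLX and 27.9% of those without. Most TLX-holding regions had a single summit (5828), 326 had 2, 43 had 3, and the rest had 4 to 9. The 398 regions with several had a median width of 8624 bp, and neighbouring summits in them were a median of 2794 bp apart.

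Over all regions the share with TLX rose with each class of width, while the density of summits was highest at 2 to 4 kb. It was 3.77% (3.35 to 4.22) under 1 kb, 15.2% (14.6 to 15.9) at 1 to 2 kb, 29.8% (28.8 to 30.8) at 2 to 4 kb, 46.4% (44.5 to 48.4) at 4 to 8 kb and 69.8% (66.5 to 73.04) at 8 kb or more. Per Mb of region there were 54.8, 104, 112, 96.8 and 86.3 summits in the same order. At fixed H3K27ac fold the rise with width was not found in weak regions. In the lowest of 5 equal groups by fold (quintiles) the share was 2.26% under 1 kb, 3.82% at 1 to 2 kb and 1.71% at 2 to 4 kb, and in the second quintile it was 4.09%, 8.05%, 7.04% and 4.13% from under 1 kb to 4 to 8 kb. In the highest quintile it rose from 34.4% at 1 to 2 kb to 47.1%, 64.6% and 83.5% in the wider classes. At fixed width the share also differed with H3K27ac fold: among regions of 1 to 2 kb it was 3.82% (3.01 to 4.78) in the lowest quintile (fold up to 2.79) and 34.4% (32.2 to 36.6) in the highest (from 10.04), which is 28.3 and 211 summits per Mb. Among the regions of 8 kb or more it was 28.3% (17.5 to 41.4) in the third quintile and 83.5% (80.0 to 86.6) in the highest.

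By gene position, regions at gene starts held TLX most often, but not at equal acetylation. TLX was in 27.5% (26.6 to 28.4) of the 10610 regions within 1 kb of a start, in 14.5% (13.9 to 15.2) of the 12017 inside genes and in 18.1% (17.3 to 18.9) of the 8639 between genes. With regions of a −log10 q under 5 left out, these shares were 29.6%, 27.3% and 29.98%, so start regions no longer led. Start regions had a median H3K27ac fold of 9.19, against 3.34 inside and 3.55 between genes. In the fourth quintile by H3K27ac fold, TLX was in 19.4% (18.1 to 20.8) of start regions, 34.6% (32.2 to 37.01) of regions inside genes and 34.7% (32.2 to 37.3) of those between genes. In the highest quintile the shares were 44.5% (43.1 to 46.0), 63.4% (60.1 to 66.7) and 65.2% (61.7 to 68.7). Width differed too within these quintiles, with medians of 2342 bp at starts, 4059 bp inside and 3801 bp between genes in the highest. At a width of 1 to 2 kb and in the fourth quintile the shares were 15.7% (14.1 to 17.3), 24.2% (19.8 to 29.1) and 25.9% (21.6 to 30.6). At that width in the highest quintile they were 34.2%, 38.5% and 33.7%, and the last 2 rest on 78 and 83 regions. At equal width without regard to fold the order differed: start regions led at 1 to 2 kb (19.9%, against 10.3% and 15.1%), while at 4 to 8 kb regions between genes did, with 56.0% (51.8 to 60.2) against 47.6% (44.5 to 50.8) at starts and 40.1% (37.1 to 43.1) inside genes.

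**Figure D3:**
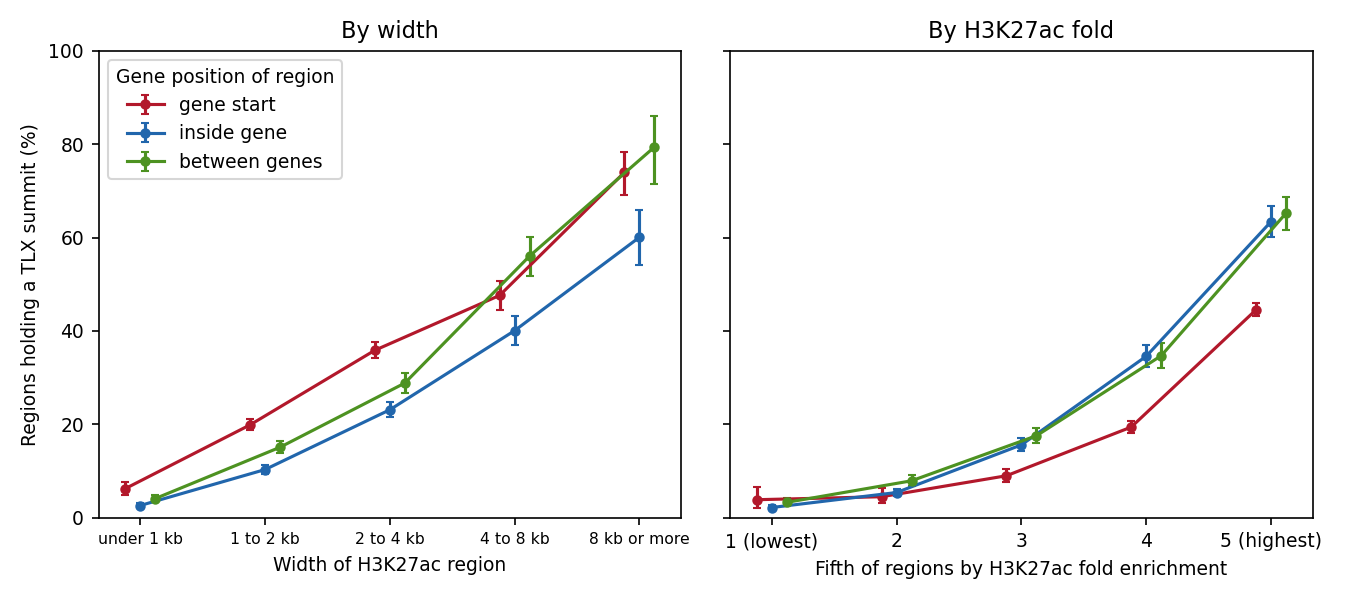
Percentage of H3K27ac regions of NSC holding a TLX summit, for regions at gene starts, inside genes and between genes, by region width (left) and by quintile of H3K27ac fold enrichment (right, 1 lowest); bars are exact 95% intervals of counting error. Start regions are highest at widths under 4 kb and lowest in every quintile by fold except the lowest quintile.

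The 10 widest H3K27ac regions with TLX held between 1 and 9 summits each. The domain over Lrig1, whose product dampens EGF receptor signalling, was 59694 bp wide and held 7 summits, all in the part from 46.0% to 92.1% of its width, with TLX folds from 3.63 to 10.1. The domain over Mir9-1 (52772 bp) held 9 summits with folds from 3.82 to 10.5, and that over Mir9-3 (43315 bp) held 8 with folds from 4.21 to 9.18. Mir9-2 lay in a domain of 32230 bp with 6 summits and folds from 3.82 to 8.41. These 3 genes encode the same microRNA, miR-9, which acts in a feedback loop with TLX, and its mature arms are shown from RefSeq because all 3 copies were covered, with the seed (bases 2 to 8) in capitals.
miR-9-5p: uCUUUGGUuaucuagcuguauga
miR-9-3p: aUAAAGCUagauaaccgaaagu
The nearest TLX summit was 570 bp from the Mir9-1 hairpin, 794 bp from that of Mir9-2 and 14 bp from that of Mir9-3. Ptn, a secreted growth factor gene, had 4 summits in 45044 bp, Prex1 5 in 44877 bp, the protocadherin domain named by Gm37013 5 in 39797 bp, Npas3 3, Acss1 2, and Myt1, a zinc finger factor gene, 1 in 41518 bp.

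Wide regions without TLX included weak and strong ones. Of the regions of 8 kb or more, 235 of 779 held no summit. The widest was a domain of 28944 bp inside Xylt1 with an H3K27ac fold of 4.48, next to a domain of 48542 bp of the same gene with a fold of 10.8 and 3 TLX summits. Others lay over Spg7 (25629 bp, H3K27ac fold 12.2), inside Fchsd2 (23313 bp, 9.798), over Cd81 (21600 bp, 9.46), 10665 bp from Pdgfra (18770 bp, 8.88), inside Fyn and Ddhd1, and 7410 bp from Qk. Both wide regions at Sox10, the oligodendrocyte lineage factor gene, of 17024 bp (named by Polr2f) and 16454 bp, were without TLX.

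**Figure D4:**
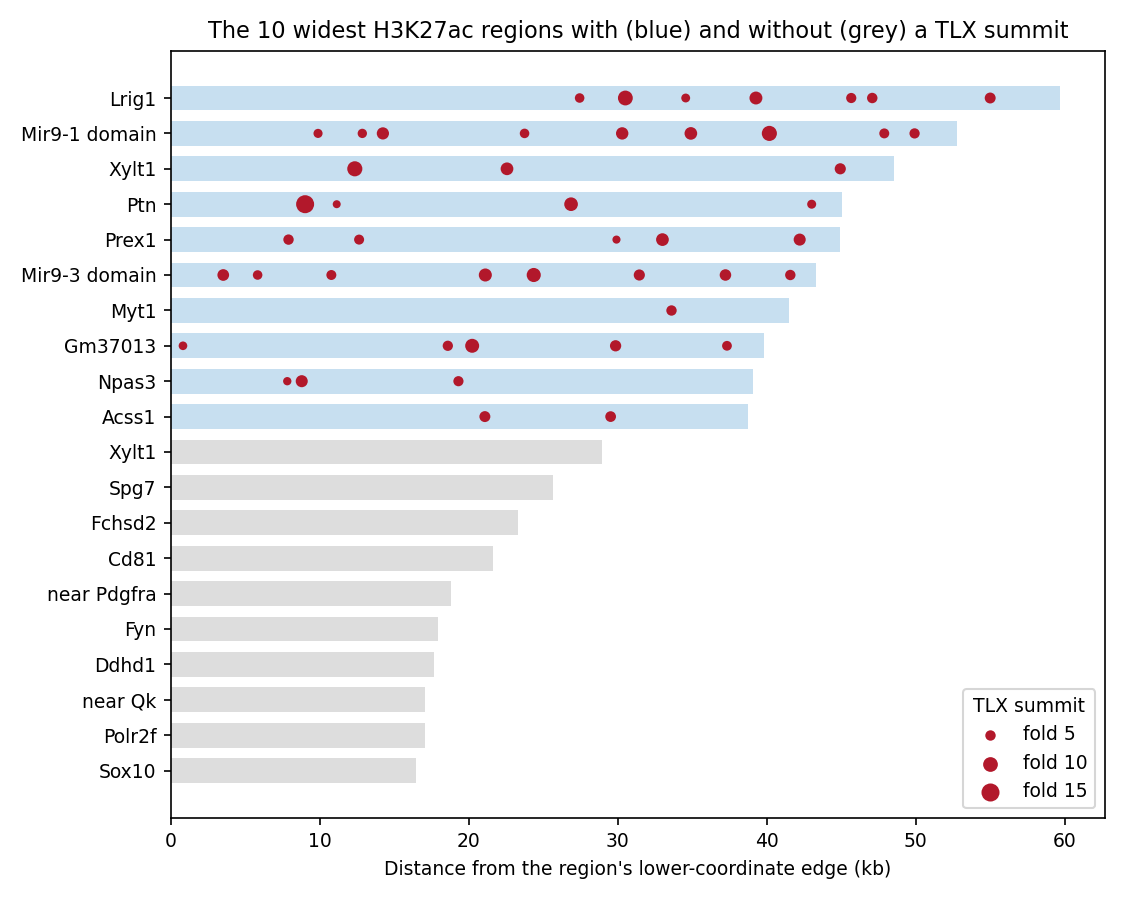
The 10 widest H3K27ac regions of NSC with a TLX summit (blue) and the 10 widest without one (grey), drawn to scale in kb from the lower-coordinate edge; red points are TLX summits, larger with a higher TLX fold. The Mir9-1 domain has 9 summits and the Lrig1 domain 7, all from 46.0% of its width onwards.

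Genes of neural stem cells and their regulators often had TLX in the acetylated region at their start. Among all protein-coding genes with H3K27ac at a start, 28.7% (3310 of 11545) had a TLX summit in that region and 24.6% had one within 1 kb of a start. Of the 14 acetylated neural stem cell genes, 11 had TLX in the region, 6 of them within 1 kb. Sox2, the pluripotency and progenitor factor gene, had 6 summits in a domain of 27340 bp with folds from 3.82 to 5.87, the nearest 693 bp from its start. Nes, encoding the intermediate filament nestin, had 4 in 18200 bp with folds from 4.02 to 4.78, and Fabp7, a radial glial gene, had a summit of fold 6.502 at 35 bp from its start and another of fold 3.44. Hes1, a Notch target that represses neuronal genes, had a summit of fold 18.0 at 1206 bp from the gene and one of fold 4.03 at 731 bp from a gene end, and Hes5 had 2 with folds of 4.78 and 4.89. Egfr, Prom1 and Nr2e1 itself had H3K27ac without TLX, in regions of 3724, 1122 and 3071 bp. These lists were drawn up with earlier results of these data known, so their counts are descriptions.

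The other gene groups are given by their counts beside the 28.7% over all acetylated genes, and differences between groups were not tested. The lists overlap, with 155 entries but 147 distinct genes, so their counts are not independent. Notch1, Hes1 and Hes5, for example, are in both the neural stem cell and the Notch list. The 28.7% is not matched for width or fold. Among the groups listed here, median widths of start regions ran from 3007 bp (cell cycle) to 15535.5 bp (oligodendrocyte lineage). Over all acetylated genes the median was 1891 bp. Start regions of 4 to 8 kb held TLX in 47.6% and those of 8 kb or more in 74.0%. In the Notch pathway 9 of 15 acetylated genes had TLX in the region. Among them were Notch1 with 4 summits in 36972 bp, Notch2 (fold 5.93, 80 bp from its start), Notch3 (fold 5.74) and the ligand gene Jag1 with 3. Dll1 and Rbpj had none. Of 13 TLX corepressor genes, all acetylated, 9 had TLX: Rcor1 (fold 6.69, 499 bp from its start), Rcor2 (fold 5.93, 83 bp), Kdm1a and Hdac7 were among them, and those without it included Hdac3, Hdac5 and Sin3a. Nuclear factor I and other glial fate genes had TLX in 9 of 12, but within 1 kb of a start in 2, Nfib (fold 7.44) and Sox21 (fold 5.74). Astrocyte genes had TLX in 6 of 9, genes of the oligodendrocyte lineage in 4 of 6, with Olig1 holding 3 summits with folds of 12.2, 13.2 and 5.003 in 14077 bp, and reported TLX targets in 6 of 9, including Wnt7a, Ccnd1 and Tet3. Cdkn1a, the gene of the cell cycle inhibitor p21 and a reported target, had a region of 6010 bp without TLX. Housekeeping genes had TLX in 5 of 12, including Actb, Gapdh, Ppia and Polr2a, and cell cycle genes in 5 of 15, with Ccnd2, Cdk1, Pcna and Myc beside Ccnd1; as shares these are 41.7% and 33.3%, the nearest of the groups with TLX to the 28.7% over all.

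Acetylated neuron genes had no TLX in their start regions. The 7 were Tubb3, Dcx, Neurod1, Map2, Syt1, Elavl3 and Gad1. Their regions were weak, with a median H3K27ac fold of 3.06 against 9.61 over all acetylated genes and 16.7 for the neural stem cell genes, and 28.7% of all acetylated genes but 4.70% of those in the second quintile by fold had TLX. Map2, with a fold of 11.4 and a width of 3821 bp, was the strongest of the 7. The regions of the neural stem cell list were also wide, with a median of 8077 bp against 1891 bp over all acetylated genes. The part of width and fold in the differences between lists was not tested further.

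Chromosome 6 stood apart from the other autosomes in the share of regions with TLX. It was 31.2% (29.2 to 33.3) on chromosome 6 and between 17.2% and 20.96% on the 18 others, with summits at 146 per Mb of region against 79.3 to 107. The difference was found in each width class, for example 26.7% (23.5 to 30.04) against 14.9% (14.3 to 15.6) at 1 to 2 kb. The median H3K27ac fold was 3.99 on chromosome 6 and 4.04 to 5.09 on the others. The median TLX fold was 4.78, within the 4.72 to 4.97 of the others. A median fold does not measure how many peaks there are, and whether H3K27ac regions were also more frequent on chromosome 6 was not tested. Chromosome X had the lowest share, 3.48% (2.31 to 5.02) of 776 regions, with a median H3K27ac fold of 4.82, and 70% of its 40 TLX summits lay within H3K27ac. Without chromosome 6, 19.1% of all regions held TLX and 26.1% of start regions. Several genes named in this report lie on or are nearest to sites on chromosome 6. They are Lrig1, Ptn, Wnt7a, Tet3, Ccnd2, Gapdh, D6Wsu163e, Cpvl and Mturn.

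**Figure D5:**
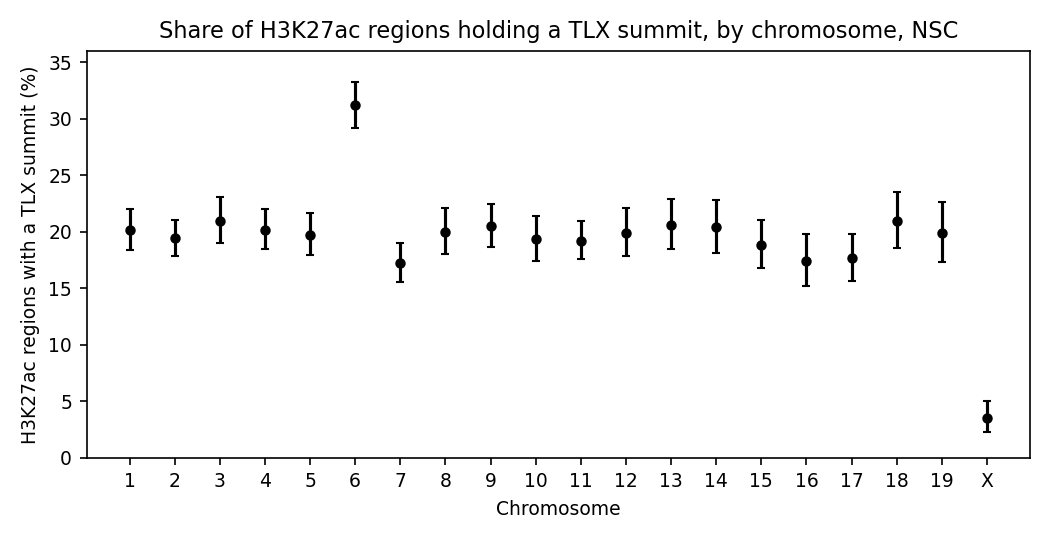
Percentage of H3K27ac regions of NSC holding a TLX summit on each chromosome, with exact 95% intervals of counting error (chromosome Y, with 1 region, is not drawn). Chromosome 6 lies at 31.2%, the other autosomes between 17.2% and 20.96%, and chromosome X at 3.48%.

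The TLX summits outside H3K27ac were mostly far from it. There were 708 (9.49%), at a median of 29699 bp from the nearest region, with 13.0% (10.6 to 15.7) within 1 kb of one and 26.7% (23.5 to 30.1) within 10 kb. Their median TLX fold was 5.35, against 4.78 for those within H3K27ac. By position 5.37% (3.83 to 7.29) were at gene starts, against 38.2% (37.1 to 39.4) of those within H3K27ac, and 48.7% lay between genes. The strongest was inside Thsd4, a gene of the extracellular matrix, with a fold of 33.9 at 147921 bp from the nearest region, followed by peaks near Mturn (22.8, at 30286 bp) and inside Bag1 (17.7, at 10973 bp). Also among the 5 of highest q were peaks with folds of only 1.22 and 1.46. Both were far from any gene: the nearest were Lrrc4c at 1035484 bp and Alkbh8 at 310755 bp, respectively.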

How the data were processed

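Chromatin from fixed NSC was sheared to about 200 bp and sequenced in paired reads of 50 bp, per the labels' protocols. The submitters' processing notes name ChIPseeker, Bowtie, bcl2fastq 2.17.1.14 and mm10. Which program called the peaks is not given in the sources used here. Each list the authors deposited holds, per peak, a score, a fold ratio against background, and p-values and q-values as −log10, and the TLX list also holds summits. Read numbers are not given, so the depth is unknown, and an absent peak means only that none was called.

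Summits were assigned to regions with pandas 2.3.3 and numpy 2.4.6, and intervals came from scipy 1.17.1; the assignment was tested on simulated data. Values expected for an even spread follow from the width of each region alone. Gene starts came from RefSeq (GRCm38.p6) for 17491 of 21883 protein-coding genes; for the other 4392, among them all of chromosome 18, either end of the gene was used. A region or summit was at a gene start within 1 kb of one, otherwise inside or between genes. Named were the 10 widest regions with and without TLX, the 5 summits of highest q per class, and list genes with a summit within 1 kb (up to 5 per list); further list genes, and Psmb3 and Bsdc1, were named after their values were seen. Some list members are not reported here. Members and the 12 gene lists were chosen with earlier results of these data known. Alternatives were a stricter q in either list, overlap in place of the summit, the peak midpoint, joining of regions, a TLX fold of at least 3, a window of 2.5 kb and all annotated genes; gene ends throughout, joining within 5 kb and leaving out chromosome 6 are additions chosen after seeing the data.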

Additional observations from a re-analysis of the deposited data

How the results depend on the processing

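No paired analysis was possible because each group has 1 library. With regions joined within 1 kb nothing changed, since the smallest gap between regions was 1629 bp, and without TLX peaks of fold under 3 all 8 values stayed within their intervals. With a TLX −log10 q of at least 5, the share of regions with TLX was 16.9% (21.8% at gene starts, 12.97% inside and 16.3% between genes), the median width without TLX 1434 bp, and cell cycle genes with TLX 3. With the same threshold on H3K27ac, 84.6% of summits were within regions, 29.03% of regions held TLX (29.6%, 27.3% and 29.98% by position), and median widths were 2689 and 1801 bp with and without TLX. Joining within 5 kb gave 22.0% (29.5%, 16.1% and 19.3%), widths of 2888 and 1470 bp, and 52.5% of summits in the core (the central 33.3% of a region); peak midpoints gave 65.2% there. By overlap, 91.6% of TLX peaks met a region. With all annotated genes, 16.7% of regions between genes held TLX. Without chromosome 6, 19.1% of regions and 26.1% of start regions did. Wherever widths were recomputed, regions with TLX were the wider. The 1 library per mark and the unknown depth limit every value.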
